A study of Homo sapiens with 24 samples.

Results

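The 33 genes described here belong to the ATF4 response and to serine synthesis, and they were found by name among the 22026 genes of the authors' RPKM table (reads scaled to the length of the gene model and the depth of the library). All 33 names were found, and 32 of them had a mean of at least 1 RPKM over the libraries and were tested. CHAC1, at a mean of 0.661 RPKM, was not. The cells were A549, an established human lung adenocarcinoma line, kept in CAF conditioned medium or in control medium for 3, 6, 12, 24, 48 or 72 h before polyadenylated RNA was sequenced. CAF usually stands for cancer-associated fibroblast in this field, but the labels do not spell it out, and neither the source of the conditioning cells nor the make-up of the media is given in the sources used here. Each medium gave 6 libraries, 1 at each time. Although 2 biological replicates are named in the design text, the table holds a single value for each gene, medium and time, so the 6 times served as the replicates of the comparison between media and a single time had no test. The p-values below measure scatter among these 12 libraries, part of which may be technical, and nothing says that they came from separate cultures. For a difference between media, this scatter includes any real change of that difference from time to time. For a change along culture, it includes any departure from a straight line.

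ATF4 is a bZIP transcription factor that is made mainly through translation: when kinases that sense amino acid shortage, unfolded protein, double-stranded RNA or haem shortage phosphorylate eIF2 alpha, general protein synthesis falls while the ATF4 message is translated more. ATF4 pairs with C/EBP proteins on composite DNA elements and switches on genes for amino acid synthesis and uptake, tRNA charging and mitochondrial one-carbon metabolism, and with lasting stress also CHOP and TRIB3. Serine synthesis from a glycolytic intermediate runs through PHGDH, PSAT1 and PSPH. SHMT2 then passes a serine carbon to folate, and MTHFD2, a folate dehydrogenase, acts on the loaded folate. Because ATF4 is set at translation, its own RNA is known as a poor guide to its activity.

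The core letters of the C/EBP-ATF composite element, TGATGCAA read on either strand, were looked for in the RefSeq promoter windows of the members, from 250 bases before to 50 bases after each start (build GRCh38.p14, not the hg19 build of the expression files). A window was at hand for 28 members and the letters stood in 8 of these (28.571%), against 295 of 27305 genes with a window (1.08%). The looser TGATGNAA, which includes every match of the first, added ASNS and GARS, for 10 of 28 members against 4.457% of those genes. The members were chosen as genes of the ATF4 response and of serine synthesis, so these shares describe the list and were not tested. Of these members 6 charge tRNA, and any tie between a match and the course of a gene with time was not tested. In control medium all 11 tRNA genes of the list were highest at 48 h. Among them were SARS, WARS, EPRS and XPOT, whose windows held neither form. Of the members with a match, all but CEBPG (3 h) and MTHFD1L (6 h) were also highest at 48 h in control medium. So were 25 of the 32 tested members (78.1%), with or without a match, and 17.8% of all tested genes. Each run of 30 bases around a match is written 5′ to 3′ on the strand of its gene, with the match in capitals.
CEBPG, chr19:33374060-33374089, plus strand: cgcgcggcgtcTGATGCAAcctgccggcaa
MTHFD1L, chr6:150866346-150866375, plus strand: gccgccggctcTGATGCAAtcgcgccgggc
CHAC1, chr15:40953251-40953280, plus strand: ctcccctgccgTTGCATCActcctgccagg
AARS (AARS1 in RefSeq), chr16:70289675-70289704, minus strand: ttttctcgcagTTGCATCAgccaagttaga
NARS (NARS1), chr18:57621804-57621833, minus strand: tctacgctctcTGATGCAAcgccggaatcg
CARS (CARS1), chr11:3057407-3057436, minus strand: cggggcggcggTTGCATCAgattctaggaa
IARS (IARS1), chr9:92293692-92293721, minus strand: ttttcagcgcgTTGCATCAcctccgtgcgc
TARS (TARS1), chr5:33440956-33440985, plus strand: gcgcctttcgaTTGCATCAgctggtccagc
ASNS, chr7:97872458-97872487, minus strand: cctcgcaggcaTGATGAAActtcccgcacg
GARS (GARS1), chr7:30594834-30594863, plus strand: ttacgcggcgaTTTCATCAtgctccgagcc
In CEBPG, MTHFD1L, NARS and ASNS the element reads along the gene, and in the other 6 it reads on the opposite strand. The windows of ATF5, CEBPB, STC2, CTH and WARS, the members that differed between media, held neither form, which says nothing of binding elsewhere. A match is a run of letters and no measurement of ATF4 on these promoters was made.

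Depth was 23.9 to 29.3 M reads at 3 to 12 h and 33.9 to 40.6 M reads at 24 to 72 h, as worked out from the steps between values. The members with the fewest reads were CHAC1 with 7 to 104 per library, CTH with 24 to 190 and NUPR1 with 26 to 105, for which counting alone gives an error of up to 37.7, 20.3 and 19.6%. TARS, among the highest, had 6537 to 14499. KRT8, an epithelial keratin, stood at 1265 to 2357 RPKM in CAF medium and 1719 to 2161 RPKM in control medium. In the same order, KRT18 stood at 677 to 1109 and 721 to 1030 RPKM. KRT19 was lower, at 4.09 to 34.1 and 1.56 to 27.6 RPKM, and so was CDH1, at 6.4 to 40.0 and 4.68 to 23.6 RPKM. EPCAM was lowest, at 0.66 to 6.46 and 0.24 to 3.3 RPKM. Also listed for this line, VIM stood at 221 to 525 and 308 to 573 RPKM. CDH2 stood at 48.7 to 104 and 64.0 to 105 RPKM. Of the leukocyte markers, PTPRC, LYZ and CD3E stayed at or below 0.17 RPKM in both media, and CD68, a lysosomal protein not limited to leukocytes, stood at 13.96 to 30.6 RPKM in CAF medium and 18.6 to 22.7 RPKM in control medium. The 10 fibroblast markers summed to 8.32 to 11.5 RPKM in CAF medium and 4.52 to 11.2 RPKM in control medium. Among them COL1A1 and FAP reached 5.81 and 4.71 RPKM in CAF medium and 4.27 and 4.09 RPKM in control medium, while COL1A2 and COL3A1 stayed at or below 0.16 RPKM. The part of these markers in the results below was not tested. In bulk RNA, a lower level per cell and fewer cells that express a gene cannot be told apart. The use of strand in counting is not given in the sources used here, so reads of overlapping or antisense genes cannot be separated, nor can those of ATF4, PSAT1, PSPH and MTHFD2 from their pseudogenes.

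Over the 6 times, 4 of the 32 tested members differed between media. CEBPB (chromosome 20 in the authors' table) and CTH (chromosome 1) rose in CAF medium, and ATF5 (chromosome 19) and WARS (chromosome 14) fell. All genes were tested together with limma on log2(RPKM + 0.5), with time as a factor and Benjamini-Hochberg adjustment over 12029 genes, and a gene was called below an adjusted p of 0.05. By that rule 12.5% of the members were called, against 10.2% of all tested genes, so the members were called at about the rate of all genes. With no filter on low values, or with no time term, no member passed here, at 3 to 12 h or in the test of late minus early differences. Their median difference was 0.03 on the log2 scale, 17 of the 32 lying above 0, and the median of all tested genes was 0.002. Differences on this scale understate the change of low genes such as CTH. Leaving out the 6, 12 or 24 h pair cut the calls over all genes too, as counted in the last section. A call lost without 1 of these pairs is therefore not particular to its gene.

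**Figure D1:**
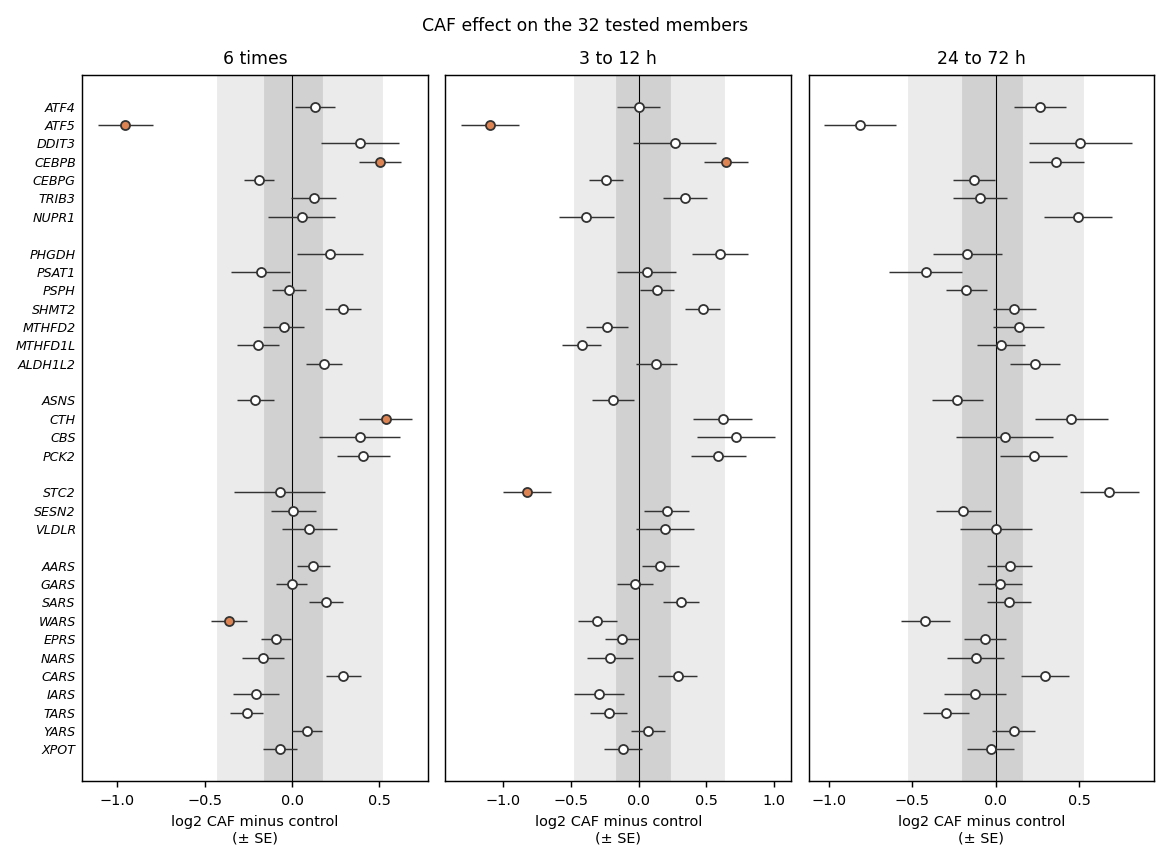
Difference between CAF and control medium (log2, with its standard error) for the 32 tested members, grouped from top to bottom as regulators, serine and one-carbon enzymes, amino acid and sulfur enzymes, secreted and stress genes, and tRNA genes. The panels show all 6 times, then 3 to 12 h, then 24 to 72 h. Filled points passed an adjusted p of 0.05 over all genes; the dark band spans the 25th to 75th percentiles of all tested genes and the light band the 5th to 95th. ATF5 lies to the left in all 3 panels, and STC2 changes side between 3 to 12 h and 24 to 72 h.

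Among the regulators, ATF4 itself showed no difference past the test. It stood at 76.2, 64.1, 88.4, 61.96, 94.2 and 81.9 RPKM in CAF medium at 3, 6, 12, 24, 48 and 72 h, against 91.3, 73.4, 64.5, 59.9, 73.0 and 63.2 RPKM in control medium. The CAF medium library was the lower one at 3 and 6 h and the higher one from 12 h on, and the ranges overlapped. The difference over the 6 times was 0.13 ± 0.12 (log2, SE; limma, adjusted p = 0.474).

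ATF5, a paralogue of ATF4 whose message is likewise translated more when eIF2 alpha is phosphorylated, gave the largest difference of any member. Its levels were 16.9, 9.80, 9.38, 5.45, 3.41 and 6.03 RPKM in CAF medium, against 32.5, 26.4, 19.0, 14.6, 7.77 and 6.10 RPKM in control medium. CAF medium was lower at 6 of 6 times. The media did not overlap at 3 to 12 h or at 24 to 72 h, and at 72 h they were nearly level. ATF5 averaged 8.50 ± 4.80 RPKM in CAF medium and 17.7 ± 10.4 RPKM in control medium (SD over 6 times, n = 6 each), a spread that holds its decline with time. The difference was −0.95 ± 0.16 (log2, SE; limma, adjusted p = 0.0135), and without the 6 h or the 12 h pair the adjusted p was 0.0537 or 0.0571.

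CEBPB encodes C/EBP beta, a partner of ATF4 that is also induced by inflammatory cytokines. Its levels were 49.8, 73.1, 68.7, 93.9, 119 and 92.4 RPKM in CAF medium, against 40.0, 34.8, 46.3, 57.8, 101 and 83.4 RPKM in control medium. CAF medium was higher at 6 of 6 times, with no overlap at 3 to 12 h and the widest gap at 6 h. Its average was 82.8 ± 24.2 RPKM in CAF medium and 60.5 ± 26.2 RPKM in control medium (SD, n = 6 each). The difference was 0.50 ± 0.12 (log2, SE; limma, adjusted p = 0.0315), and leaving out the 6, 12 or 24 h pair gave an adjusted p of 0.0920, 0.0857 or 0.105.

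DDIT3, which encodes the stress factor CHOP, did not pass. Its levels were 15.3, 9.66, 17.5, 7.83, 35.2 and 17.5 RPKM in CAF medium, against 7.76, 14.5, 12.9, 10.6, 13.3 and 11.8 RPKM in control medium. The 48 h library in CAF medium stood apart at 2.64 times its control, and at 6 and 24 h CAF medium was the lower one. The difference was 0.39 ± 0.22 (log2, SE; limma, adjusted p = 0.267).

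TRIB3, a pseudokinase induced by ATF4 and CHOP that restrains them in turn, stood at 3.04, 2.96, 3.27, 4.24, 3.66 and 2.99 RPKM in CAF medium, against 2.07, 2.72, 2.23, 3.43, 4.95 and 3.41 RPKM in control medium. Up to 24 h CAF medium was the higher one and at 48 and 72 h the lower, and the difference was 0.12 ± 0.13 (log2, SE; limma, adjusted p = 0.549). CEBPG, a C/EBP partner of ATF4, lay between 15.4 and 23.1 RPKM in CAF medium and between 19.3 and 26.0 RPKM in control medium. NUPR1, a small stress-induced nuclear protein, lay between 1.08 and 2.84 RPKM in CAF medium and between 0.95 and 3.42 RPKM in control medium. Neither CEBPG nor NUPR1 passed in any of the 7 tests.

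**Figure D2:**
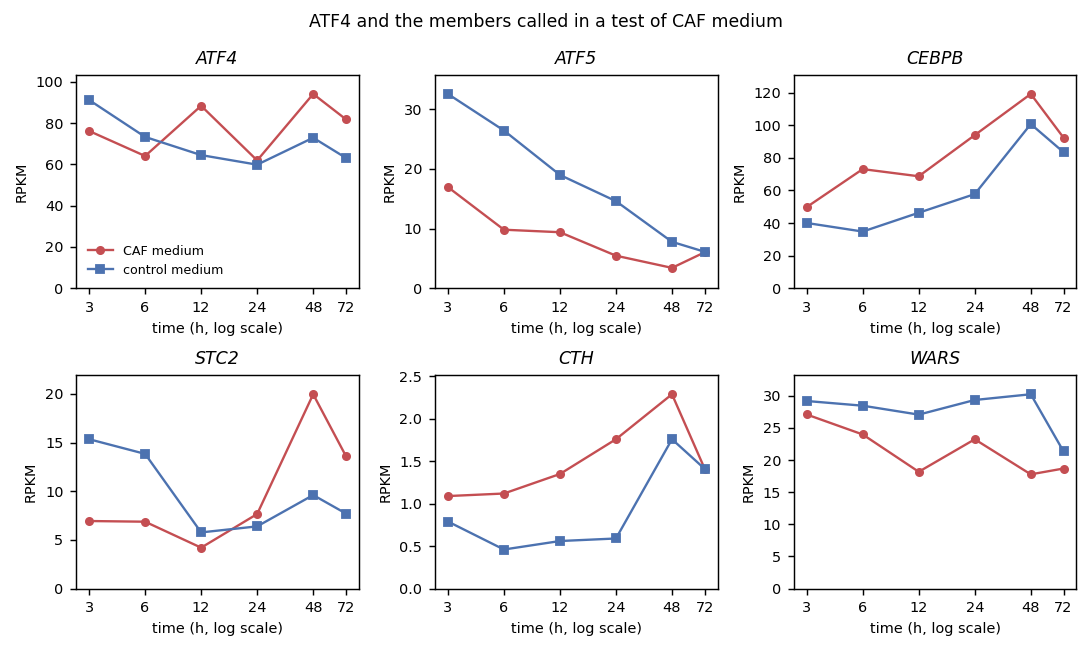
Levels (RPKM, linear axis from 0) of ATF4, ATF5, CEBPB, STC2, CTH and WARS against time (hours, log scale), with 1 library per point, CAF medium as circles and control medium as squares. ATF5 lies lower and CEBPB higher in CAF medium at each time, CTH lies higher up to 48 h and equal at 72 h, and the STC2 lines cross between 12 and 24 h.

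None of the 7 serine and one-carbon members passed the test between media. Over the 6 times their differences ran from −0.19 for MTHFD1L to 0.29 for SHMT2, with a median of −0.02. PHGDH, which starts serine synthesis, stood at 7.23, 7.38, 8.10, 7.63, 5.67 and 5.22 RPKM in CAF medium, against 5.02, 4.87, 4.55, 5.13, 10.6 and 6.07 RPKM in control medium. Up to 24 h the CAF medium libraries were the higher ones and did not overlap the control ones, and at 48 and 72 h they were lower. The difference was 0.60 ± 0.21 over 3 to 12 h and −0.17 ± 0.21 over 24 to 72 h (log2, SE; limma, adjusted p = 0.104 and 0.684), and the late minus early difference was −0.77 (adjusted p = 0.350).

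PSAT1, the aminotransferase of the second step, stood at 33.5, 26.9, 20.4, 30.3, 24.5 and 25.8 RPKM in CAF medium, against 24.9, 30.7, 21.1, 34.7, 56.8 and 23.7 RPKM in control medium. The 48 h control library was more than any other, and there PSAT1 in CAF medium was 0.431 of its control. Its difference was −0.18 ± 0.17 (log2, SE; limma, adjusted p = 0.510), and 0.02 without the 48 h pair. PSPH, which releases serine in the last step, stayed within 35.1 to 45.7 RPKM in CAF medium and 35.5 to 50.2 RPKM in control medium.

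SHMT2, the mitochondrial enzyme that splits serine into glycine and a one-carbon unit, stood at 14.7, 17.4, 17.2, 20.2, 20.3 and 17.1 RPKM in CAF medium, against 11.7, 11.8, 11.4, 15.96, 21.7 and 15.9 RPKM in control medium. CAF medium was higher at 5 of 6 times, with 48 h as the exception. The difference was 0.29 ± 0.11 over the 6 times and 0.47 ± 0.13 over 3 to 12 h (log2, SE; limma, adjusted p = 0.0941 and 0.0577), and the early value passed at 0.0476 without the 24 h pair. Early calls over all genes also rose without that pair. MTHFD2, the mitochondrial folate dehydrogenase, stood at 46.1, 36.9, 29.5, 50.4, 92.8 and 66.0 RPKM in CAF medium, against 49.7, 51.7, 31.9, 59.3, 82.1 and 47.7 RPKM in control medium. Both media had their lowest library at 12 h and their highest at 48 h, and the difference of −0.05 ± 0.12 was near 0 (log2, SE; limma, adjusted p = 0.817).

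MTHFD1L, which makes formate in mitochondria, stood at 14.9, 12.3, 10.4, 13.3, 14.3 and 11.1 RPKM in CAF medium, against 19.3, 20.2, 12.1, 15.8, 12.4 and 9.94 RPKM in control medium. CAF medium was the lower one up to 24 h and the higher one after. ALDH1L2, a mitochondrial formyl-folate dehydrogenase, lay higher in CAF medium at 6 of 6 times, at 1.94 to 3.75 RPKM against 1.85 to 3.53 RPKM in control medium. Its difference was small, at 0.18 ± 0.10 (log2, SE; limma, adjusted p = 0.251).

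Of the 5 amino acid and sulfur members, CTH passed and 3 did not, with CHAC1 untested. CTH, cystathionine gamma-lyase, makes cysteine in the last step of transsulfuration. Its levels were 1.09, 1.12, 1.35, 1.76, 2.29 and 1.41 RPKM in CAF medium, against 0.79, 0.46, 0.56, 0.59, 1.76 and 1.41 RPKM in control medium. CAF medium was higher at 5 of 6 times and equal at 72 h, and there was no overlap at 3 to 12 h. CTH averaged 1.50 ± 0.45 RPKM in CAF medium and 0.93 ± 0.53 RPKM in control medium (SD, n = 6 each). The difference was 0.54 ± 0.15 (log2, SE; limma, adjusted p = 0.0492). Leaving out the 3, 6, 12, 24 or 48 h pair ended the call, with an adjusted p of up to 0.150, and so did a pseudocount of 0.1 or quantile normalization.

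CBS, which makes the cystathionine that CTH splits, stood at 5.52, 5.79, 8.08, 8.42, 6.87 and 5.70 RPKM in CAF medium, against 4.62, 3.89, 2.72, 3.91, 11.7 and 6.29 RPKM in control medium. In CAF medium it was higher up to 24 h, past 2-fold at 12 h and 24 h, and lower at 48 and 72 h. The difference was 0.39 ± 0.23 (log2, SE; limma, adjusted p = 0.284). PCK2, the mitochondrial phosphoenolpyruvate carboxykinase, stood at 4.81, 5.92, 6.48, 8.84, 9.89 and 8.72 RPKM in CAF medium, against 3.89, 3.72, 3.27, 4.63, 12.4 and 7.98 RPKM in control medium. CAF medium was again higher at all times but 48 h. Its difference was 0.41 ± 0.15 (log2, SE; limma, adjusted p = 0.105), and without the 48 h pair it was 0.55 with an adjusted p of 0.0405.

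ASNS, asparagine synthetase and a classical ATF4 target, stood at 15.6, 13.0, 11.3, 13.3, 18.3 and 14.4 RPKM in CAF medium, against 17.3, 17.6, 11.3, 16.1, 27.3 and 13.1 RPKM in control medium. The 48 h library was the highest in each medium. The difference was −0.21 ± 0.11 (log2, SE; limma, adjusted p = 0.213). CHAC1, which breaks down glutathione and is a late target of ATF4 and CHOP, stood at 0.31, 0.24, 0.33, 0.28, 1.36 and 1.64 RPKM in CAF medium, against 0.17, 0.32, 0.37, 0.35, 1.41 and 1.15 RPKM in control medium. In both media the 48 and 72 h libraries were above 1 RPKM and all earlier ones below 0.4 RPKM.

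STC2, a secreted glycoprotein of the unfolded protein and ATF4 responses, was the 1 member that passed the test of a difference between early and late times. Its levels were 6.94, 6.87, 4.2, 7.66, 19.97 and 13.6 RPKM in CAF medium, against 15.4, 13.8, 5.77, 6.39, 9.61 and 7.71 RPKM in control medium. CAF medium was lower at 3, 6 and 12 h and higher at 24, 48 and 72 h. The difference was −0.82 ± 0.17 over 3 to 12 h and 0.68 ± 0.17 over 24 to 72 h (log2, SE; limma, adjusted p = 0.0273 and 0.0541). The late minus early difference was 1.50 ± 0.25 (log2, SE; limma, adjusted p = 0.0385), a test that called 3.12% of members and 0.416% of all genes. Leaving out the 3, 6, 12, 48 or 72 h pair raised that adjusted p to 0.166, 0.101, 0.126, 0.189 or 0.150, while the difference stayed between 1.34 and 1.72. The early difference lost its call without any 1 of the 3 early pairs, at 0.0852 without 3 h, 0.185 without 6 h and 0.0744 without 12 h.

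SESN2, a leucine sensor that restrains mTORC1, stood at 2.46, 2.15, 2.14, 2.11, 2.40 and 1.63 RPKM in CAF medium, against 1.48, 2.37, 1.86, 2.33, 2.96 and 1.97 RPKM in control medium. At 3 and 12 h CAF medium was higher and at the other times lower, and the difference of 0.01 changed sign to −0.0061 under median centring and −0.05 under quantile normalization. VLDLR, a lipoprotein receptor, lay at 7.21 to 17.8 RPKM in CAF medium and 8.07 to 13.2 RPKM in control medium.

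Of the 10 tRNA synthetases and XPOT, the exporter of tRNA from the nucleus, WARS alone passed over the 6 times. WARS charges tRNA with tryptophan and is also known as an interferon-induced gene. Its levels were 27.1, 24.0, 18.2, 23.2, 17.8 and 18.7 RPKM in CAF medium, against 29.2, 28.5, 27.1, 29.4, 30.3 and 21.3 RPKM in control medium. CAF medium was lower at 6 of 6 times, and the ranges overlapped through the 72 h control library. WARS averaged 21.5 ± 3.83 RPKM in CAF medium and 27.6 ± 3.25 RPKM in control medium (SD, n = 6 each). The difference was −0.36 ± 0.10 (log2, SE; limma, adjusted p = 0.0492). The call was lost without the 6, 12, 24, 48 or 72 h pair (adjusted p up to 0.127) and with a mean-variance trend left out, a pseudocount of 0.1, quantile normalization or a minimum of 5 RPKM.

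The other 10 tRNA genes ran from −0.26 for TARS, the threonine enzyme, to 0.29 for CARS, the cysteine enzyme, and 4 of the 11 had a positive difference. TARS was lower in CAF medium at 6 of 6 times, at 78.0 to 104 RPKM against 90.4 to 127 RPKM in control medium (limma, adjusted p = 0.101). CARS and SARS, the serine enzyme, were higher at 6 of 6 times without passing, CARS at 27.9 to 49.2 RPKM in CAF medium and 24.3 to 44.9 RPKM in control medium (limma, adjusted p = 0.0827). Members on the same side at every pair were 4 higher (CEBPB, ALDH1L2, SARS and CARS, 12.5%) and 3 lower (ATF5, WARS and TARS, 9.38%), against 8.97 and 7.81% of all tested genes.

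Over 3 to 12 h CEBPB rose, and ATF5 and STC2 fell, in CAF medium. These 3 members passed (9.38%, against 5.63% of all tested genes), with CEBPB at 0.65 ± 0.16, ATF5 at −1.10 ± 0.22 and STC2 as above (log2, SE; limma, adjusted p = 0.0451, 0.0230 and 0.0273). The CEBPB call was lost without the 6, 12, 48 or 72 h pair, at up to 0.283, and the ATF5 call without the 6 or 12 h pair, at 0.167 and 0.124. Nearly all calls over all genes in this test were also lost without the 6 or 12 h pair. The 48 and 72 h pairs enter these early differences only through the shared estimate of the spread. The all-gene calls in this test were 453 higher and 224 lower, and 299 and 230 after quantile normalization. At these 3 times 10 members lay above control in CAF medium with no overlap, namely CEBPB, TRIB3, PHGDH, SHMT2, ALDH1L2, CTH, CBS, PCK2, AARS and SARS. That is 31.2% of members, against 18.6% of all genes, and 1 member, ATF5, lay below with no overlap (3.12%, against 8.99%). Some gaps were thin, such as 1.94 against 1.92 RPKM for ALDH1L2 and 70.4 against 68.3 RPKM for AARS. Of the 10, CEBPB alone was called in the test at these times.

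Over 24 to 72 h no member passed, against 4.09% of all tested genes. STC2 was nearest (limma, adjusted p = 0.0541), followed by ATF5 at −0.81 ± 0.22 (log2, SE; limma, adjusted p = 0.0606). Without the 72 h pair ATF5 was at −1.21 with an adjusted p of 0.0123. STC2 passed without the 24 h pair, at 0.90 with an adjusted p of 0.0318. ATF5 was also the 1 member without overlap at these times, below control (3.12%, against 4.87%). That separation rests on 6.03 against 6.10 RPKM at 72 h, from 581 reads in each library, so it is close to a tie. At single times, with 1 library per medium and no test, differences past 1 on the log2(RPKM + 0.5) scale were seen for STC2 (lower) at 3 h, CEBPB (higher) and ATF5 (lower) at 6 h, CBS (higher) at 12 h, and CTH and CBS (higher) with ATF5 (lower) at 24 h. At 48 h DDIT3 and STC2 were past it on the higher side and ATF5 and PSAT1 on the lower, and at 72 h no member was. On plain RPKM, CTH at 6 and 12 h (2.43 and 2.41 times control) and NUPR1 at 72 h (2.03 times) were also past 2-fold higher in CAF medium, STC2 at 6 h (0.496 of control) and ATF5 at 12 h (0.494) past 2-fold lower, and NUPR1 at 6 h stood at 0.5 of control. The shares of all tested genes past 1 on the log2(RPKM + 0.5) scale at those 6 times were 2.18, 3.29, 4.29, 4.09, 5.4 and 0.906%. No such share was worked out on plain RPKM, where low genes pass 2-fold more readily. The CTH control values at 6 and 12 h rest on 24 and 34 reads.

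Along culture, ATF5 fell and CEBPB rose in both media. The slope on log2 of the hours was fitted within each medium, so that its unit is the log2 change per doubling of time. In CAF medium 2 members passed (6.25%, against 18.2% of all tested genes), ATF5 at −0.38 ± 0.07 and CEBPB at 0.22 ± 0.06 (SE; limma, adjusted p = 0.00407 and 0.0220). In control medium 6 members passed (18.8%, against 15.2%), with ATF5 at −0.52 ± 0.07 and CEBPB at 0.31 ± 0.06 (SE; limma, adjusted p = 0.00340 and 0.00779). The ATF5 slopes passed without any 1 time, whereas CEBPB was lost in CAF medium without 3 or 48 h (adjusted p = 0.140 and 0.0855) and in control medium without 6 or 72 h (0.0519 and 0.0857).

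The other 4 members with a slope in control medium were PCK2 at 0.31, TRIB3 at 0.18, SHMT2 at 0.16 and MTHFD1L at −0.19 (limma, adjusted p = 0.0193, 0.0442, 0.0437 and 0.0350). TRIB3 and SHMT2 lost the call under median centring and quantile normalization. All 4 lost it without the 6, the 48 or the 72 h pair, TRIB3 and SHMT2 also without 3 or 24 h and MTHFD1L also without 3 h, at up to 0.140 for PCK2, 0.195 for TRIB3, 0.189 for SHMT2 and 0.276 for MTHFD1L. All-gene calls in control medium were 1372 up and 458 down, but 883 and 853 after median centring and 768 and 733 after quantile normalization. The difference of the 2 slopes passed for no member and for 0 of 12029 genes with limma, with 3 members and 1152 genes at an unadjusted p under 0.05.

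Most members had their highest control medium library at 48 h. In control medium 25 of the 32 tested members had their highest library at 48 h (78.1%, against 17.8% of all tested genes). In CAF medium 16 of 32 did (50%, against 22.9%). On the log2 scale, the median member stood 0.24 above the median of its other 5 times at 48 h in CAF medium and 0.49 above in control medium, where the median of all tested genes was −0.01 and 0.10. This is 1 library per medium, so the time and the library cannot be told apart, and no test was made.

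**Figure D3:**
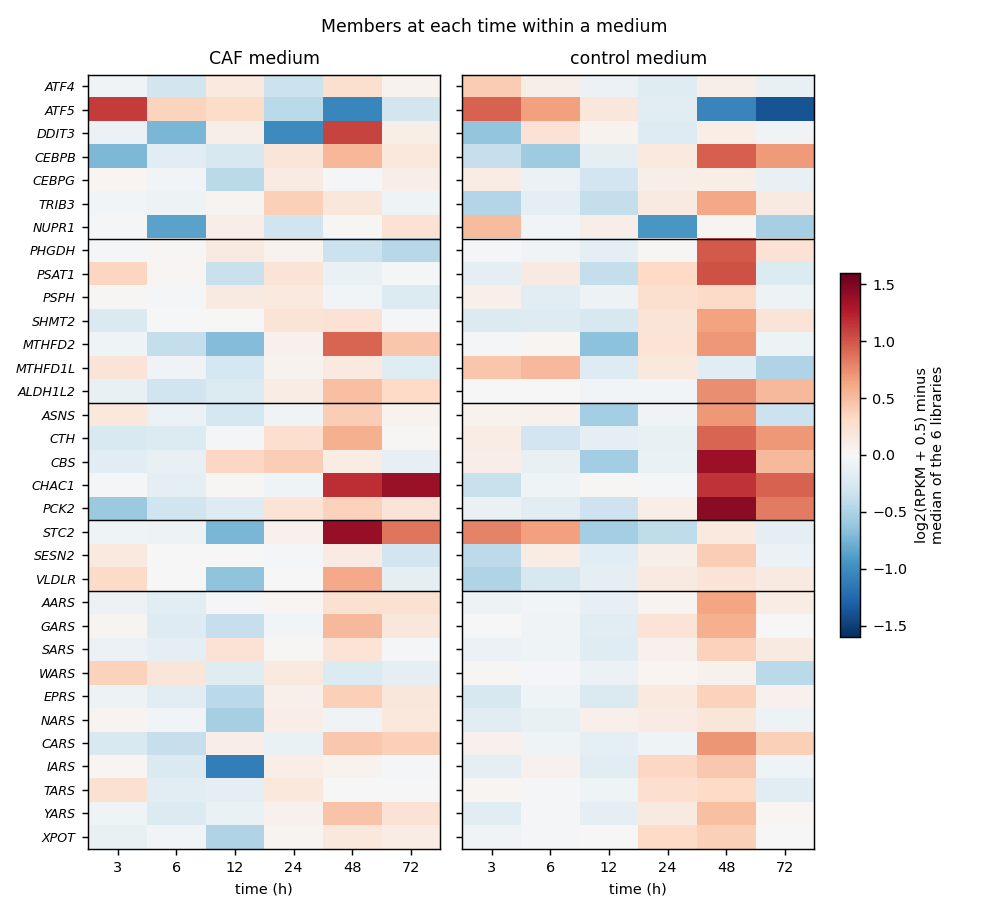
Each of the 33 members at each time, as log2(RPKM + 0.5) minus the median of the 6 libraries of the same medium (red above, blue below), with CAF medium left and control medium right and lines between the groups. In control medium the 48 h column is red for nearly all serine, amino acid and tRNA genes, while ATF5 is at its lowest at 48 h in CAF medium and at 72 h in control medium.

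By role, the 48 h control library was highest for 11 of 11 tRNA genes, 4 of 4 tested amino acid and sulfur genes, 6 of 7 serine and one-carbon genes and 2 of 3 secreted and stress genes, but for 2 of 7 regulators. In CAF medium the same counts were 5 of 11, 3 of 4, 3 of 7, 2 of 3 and 3 of 7. AARS, the alanine enzyme, was picked after its values were seen. It stood at 74.5, 70.4, 77.5, 81.2, 94.1 and 94.3 RPKM in CAF medium, against 66.5, 68.3, 64.0, 72.4, 109 and 76.2 RPKM in control medium. Its 48 h control library stood 0.68 above the median of its other 5 times (log2), where the median of the 11 tRNA genes was 0.44. Control AARS was level up to 24 h and then peaked, and CAF medium AARS ended on a plateau. ATF4 RNA peaked at 48 h in CAF medium and at 3 h in control medium.

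**Figure D4:**
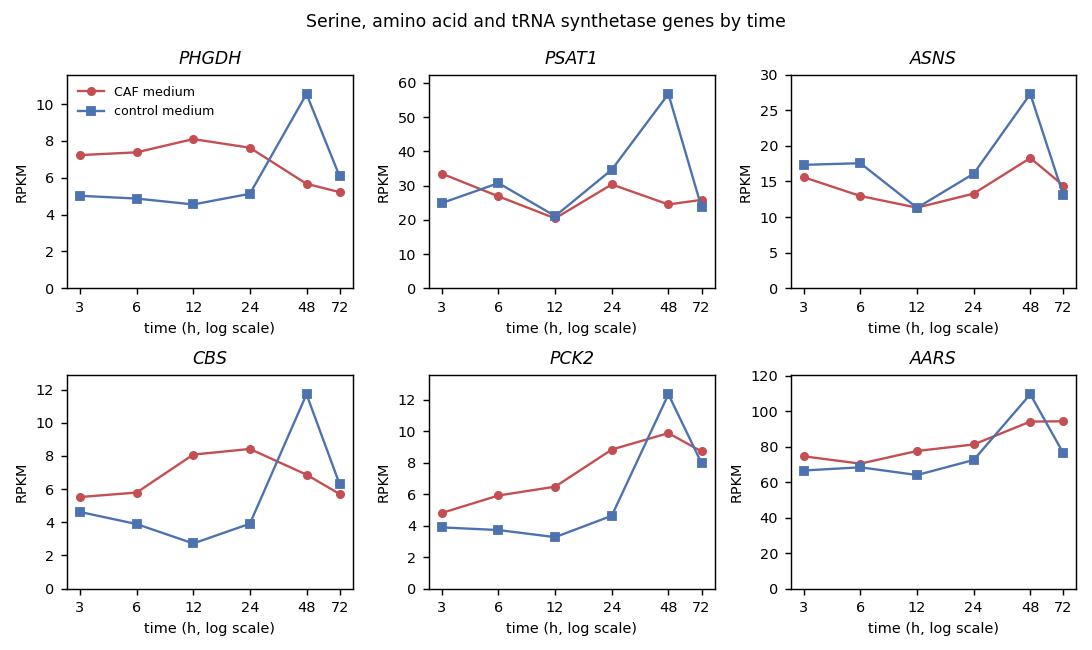
Levels (RPKM, linear axis from 0) of PHGDH, PSAT1, ASNS, CBS, PCK2 and AARS against time (hours, log scale), with 1 library per point, CAF medium as circles and control medium as squares. In all 6 genes the highest control medium point is at 48 h, above the CAF medium point of that time. Over the 32 tested members, CAF medium was above control at 48 h in 14 and below it in 18.

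Synthetases outside the member list gave other counts. Of 13 other cytosolic synthetases and factors of the multi-synthetase complex, 3 were highest at 48 h in CAF medium and 1 in control medium (23.1 and 7.69%). Of 15 mitochondrial synthetases, which are separate genes, 0 were highest at 48 h in CAF medium and 4 in control medium (26.7%). Their medians against the other 5 times were −0.01 and −0.28 in CAF medium and −0.03 and −0.07 in control medium, where the 11 member tRNA genes had 0.23 in CAF medium and 0.44 in control medium. Of 15 further known ATF4 targets, 7 were highest at 48 h in CAF medium and 9 in control medium. The members were named with earlier results of these data known, so these counts describe the lists and were not tested.

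**Figure D5:**
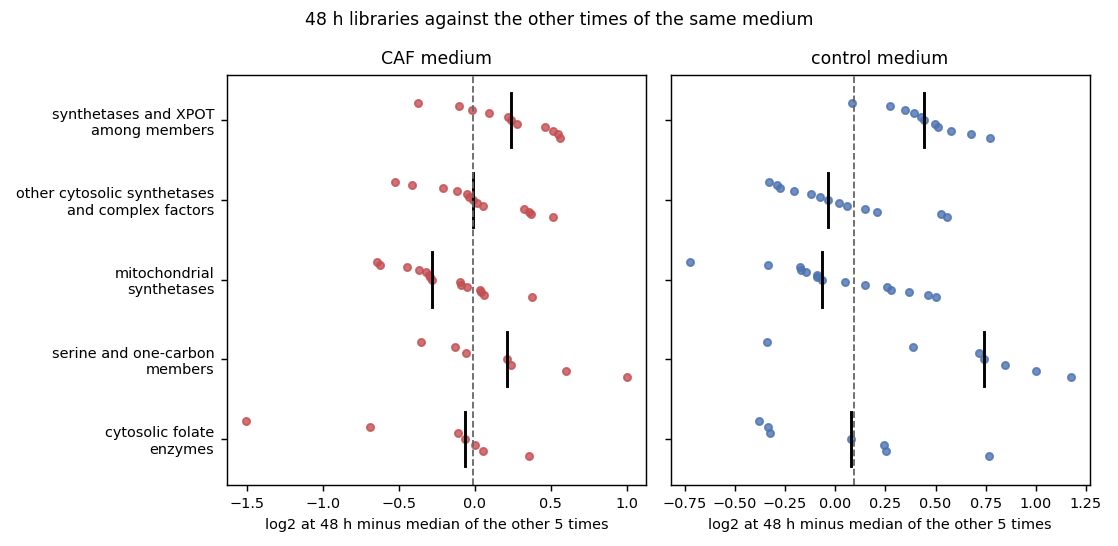
Level at 48 h minus the median of the other 5 times (log2), 1 point per gene, for 5 groups of genes in CAF medium (left) and control medium (right), with the group median as a black bar and the median of all tested genes as a dashed line. In control medium all 11 member tRNA genes lie above 0, with a median of 0.44, while other cytosolic and mitochondrial synthetases lie on both sides of 0.

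Upstream of ATF4, 0 of 4 eIF2 alpha kinase genes and 0 of 9 genes of eIF2 alpha, its phosphatase subunits, its exchange factor and the kinase inhibitor IMPACT passed in the test over the 6 times. Of 11 genes of the ATF6 and XBP1 branches of the unfolded protein response, which run beside that of ATF4, 0 passed. All tested genes were called in 10.2%, so with lists this short a count of 0 says little. For the slope with time in CAF medium, 3 of the 11 branch genes were called rising and 1 falling. That test called 18.2% of all tested genes. In control medium 1 branch gene was called rising and 0 falling. Amino acid carriers, many of them ATF4 targets, moved in both directions, with 1 higher and 4 lower of 9 tested (all tested genes were called higher in 6.06% and lower in 4.13%). The carriers that fell were SLC7A5 (the large neutral amino acid exchanger), SLC7A11 (the cystine importer), SLC7A1 (a cationic amino acid carrier) and SLC1A4 (an alanine and serine carrier), and SLC38A2 (a glutamine and alanine importer) rose.

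SLC7A5 stood at 108, 39.5, 26.1, 43.0, 26.5 and 27.9 RPKM in CAF medium, against 112, 97.6, 67.4, 89.9, 65.7 and 39.0 RPKM in control medium. It was lower in CAF medium at 6 of 6 times and nearly level at 3 h, with a difference of −0.92 ± 0.17 (log2, SE; limma, adjusted p = 0.0162). SLC38A2 stood at 41.3, 39.1, 26.8, 45.9, 62.5 and 38.3 RPKM in CAF medium, against 13.1, 19.0, 17.6, 30.01, 40.7 and 31.5 RPKM in control medium. It was higher at 6 of 6 times, by 0.79 ± 0.15 (log2, SE; limma, adjusted p = 0.0178). SLC7A11, SLC1A4 and SLC7A1 differed by −0.74, −0.61 and −0.52 (limma, adjusted p = 0.0276, 0.0166 and 0.0398).

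Outside the carriers, 4 more genes of the wider lists passed over the 6 times. QARS, the glutamine enzyme, rose by 0.40, and AIMP2, a scaffold of the synthetase complex, CARS2, the mitochondrial cysteine enzyme, and CHAC2, a relative of CHAC1, differed by −0.39, −0.40 and −0.75 (log2; limma, adjusted p = 0.0329, 0.0429, 0.0195 and 0.0365). In all, 2 of 94 tested genes of these lists were higher and 7 lower. Each of these 9 calls was lost without the 6, the 12 or the 24 h pair, with a highest adjusted p from 0.0615 for SLC1A4 to 0.129 for AIMP2. Most calls over all genes were lost without each of these pairs too. SLC7A11, SLC7A1, QARS and AIMP2 were also lost without the 48 h pair.

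Within 3 to 12 h, SLC38A2 and SLC43A1, another neutral amino acid carrier, were higher by 1.08 and 1.19, and SLC7A5 and SLC7A1 differed by −0.90 and −0.70 (log2; limma, adjusted p = 0.0131, 0.0241, 0.0486 and 0.0456). Without the 6 or the 12 h pair each of these was lost, at up to 0.102 for SLC38A2 and 0.269 for SLC7A5, and SLC7A5 and SLC7A1 also without the 48 h pair. Within 24 to 72 h, GDF15, a secreted stress cytokine that CHOP, ATF4 and p53 can induce, stood at 12.7, 129 and 45.0 RPKM in CAF medium, against 8.49, 18.0 and 14.8 RPKM in control medium. Its difference was 1.64 ± 0.35 (log2, SE; limma, adjusted p = 0.0288). SLC7A5, the partner chain SLC3A2, TYMS, the folate-dependent thymidylate synthase, and CHAC2 differed by −0.94, −0.88, −0.98 and −1.08 in those late libraries (log2; limma, adjusted p = 0.0486, 0.0478, 0.0122 and 0.0290). None of the 5 late calls was kept without the 48 h pair, and the highest adjusted p was 0.133 for TYMS, 0.178 for CHAC2, 0.269 for GDF15, 0.364 for SLC3A2 and 0.368 for SLC7A5. GDF15 was also lost without the 12 or 72 h pair, CHAC2 without 12 h, and SLC3A2 and SLC7A5 without 6, 12 or 24 h. Most late calls over all genes were also lost without the 48 h pair. Late pairs enter an early difference, and early pairs a late one, only through the shared estimate of the spread. FGF21 and MARS2, also on these lists, were not found by name among the authors' RPKM values and so were not analysed here.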

How the data were processed

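The values are RPKM, deposited by the authors to 2 decimals per gene with the length of the gene model. TopHat2, edgeR and hg19 are the tools and build named per the submitters' processing notes. How reads were counted, whether by strand, with which annotation, and how replicates were joined is not given in the sources used here. Per the labels, libraries were directional and made from polyadenylated RNA. Depth was recovered from gene models under 400 bases, whose values were whole multiples of 1 read within 0.1 read in 100% of cases.

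Tests used limma 3.58.1 in R 4.3.3 (lmFit, eBayes with a trend, two-sided) on log2(RPKM + 0.5) of the 12029 genes whose mean reached 1 RPKM. The fit over the 6 times had 5 residual degrees of freedom, that with early and late effects 4 and that of the slopes 8. The fits were tested on simulated data. Per-library values are given for members called in any of the 7 tests and for 10 members fixed by name, among them ATF4, CHAC1 and PHGDH, and a few more are given by range. AARS and CBS were added after their values were seen. Members, lists and tests were chosen with earlier results of these data known. Promoter sequences are from RefSeq, GRCh38.p14. Small RNA libraries were not used.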

Additional observations from a re-analysis of the deposited data

Results flagged for a closer look

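A library that stood far from the other 5 of its medium was looked for in 66 groups, 33 members in 2 media, where chance alone picks about 1 in 20, and 6 were found. In CAF medium, DDIT3 was high at 48 h at 35.2 RPKM, the next library being at 17.5 RPKM. Also in CAF medium, the 12 h library was low for CEBPG at 15.4 RPKM, with 20.3 RPKM as the nearest, and for IARS, the isoleucine enzyme, at 9.91 RPKM, with 18.6 RPKM as the nearest. In control medium, the 48 h library was high for PHGDH at 10.6 RPKM, with 6.07 RPKM next, and for AARS at 109 RPKM, with 76.2 RPKM next. WARS in control medium was low at 72 h, at 21.3 RPKM against 27.1 RPKM for the nearest. The difference between media in STC2 was not the same early and late: late minus early it was 1.50 on the log2 scale by a test of that difference.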

How the results depend on the processing

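Over the 6 times 1226 genes and 4 members passed. No filter on low values or no time term left 0 and 0, a minimum of 5 RPKM 601 and 2, and a pseudocount of 0.1 or quantile normalization 2 members. Over 3 to 12 h (677 genes, 3 members) there were 0 and 0 with no filter, 13 and 0 with no time term and 365 genes at 5 RPKM. Over 24 to 72 h (492 and 0) there were 36 genes with no filter, 0 with no time term, 2 members at 5 RPKM and 1 with quantile normalization. Late minus early (50 and 1) gave 0 and 0 with no filter, no trend or no time term. The slope in CAF medium (2188 and 2) passed in 1422 genes at 5 RPKM. The slope in control medium (1830 and 6) passed in 922 at 5 RPKM, in 2747 on plain hours, and in 2 members with no filter.

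Leaving out 1 pair of libraries gave 34 to 1399 genes and 0 to 3 members over the 6 times (34 without 6 h, 35 without 12 h, 117 without 24 h, 729 without 48 h), 0 to 1084 and 0 to 7 early (0 without 12 h, 5 without 6 h, 1084 without 24 h), 31 to 542 and 0 to 1 late (31 without 48 h, 277 without 24 h), 0 to 242 and 0 to 2 for their difference, 547 to 2419 and 1 to 3 for the CAF slope, 18 to 2206 and 1 to 6 for the control slope, and 0 and 0 for the slope difference. Over the 6 times, uncalled differences changed sign when 1 pair was left out for PSAT1 (−0.30 without 3 h to 0.024 without 48 h), MTHFD2 (−0.15 without 72 h to 0.038 without 6 h), STC2 (−0.29 without 48 h to 0.13 without 3 h, with 0.11 without 6 h) and SESN2 (−0.11 without 3 h to 0.059 without 48 h, with −0.024 without 12 h). SESN2 was also −0.0061 with median centring and −0.050 with quantile normalization. The cause was not tested. Members highest at 48 h in control medium numbered 21 to 26 under the alternatives chosen after seeing the data, and 14 to 16 in CAF medium. The labels carry no replicate numbers; the tests between media are paired by time, and those with no time term are the same tests unpaired.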
